A study of Mus musculus with 59 samples.

Results

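Interferon-stimulated genes are the genes that a cell switches on when interferon reaches its receptors. The 9 described here are Ifit1, Ifit2, Ifit3, Irf7, Isg15, Bst2, Oasl2, Usp18 and H2-T23. They were taken by symbol from the 18088 genes of the deposited table, and all 9 were present and high enough to be tested, among 17875 tested genes. The RNA came from mice of the C57BL/6J strain, whose prefrontal cortex was taken on postnatal day 25. The mice were heterozygous for Ash1l (HT) or wild type (WT), female or male, and had received vehicle, fluoxetine (an inhibitor of serotonin reuptake) or lithium (a mood stabiliser) in maternal milk between days 3 and 24 after birth. The 59 libraries fell into 12 groups of 5, except HT lithium females with 4. Doses, litters, dams and the make-up of the Ash1l allele were not given in the sources used here. The p-values therefore measure only the spread between these libraries, and a litter shared within a group could not be told apart from treatment. Of 234 values (9 genes in 26 comparisons) 2 passed the test, and both were a higher level of H2-T23 under lithium. They were the average over both genotypes and sexes, where 13.1% of all genes passed, and WT males, where 0.476% did. The WT males are part of that average, and their call was lost when certain single libraries were left out.

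Type I interferons bind a receptor pair at the cell surface, and kinases at the receptor then activate transcription factors that bind a short element in the promoters of their target genes. In the healthy brain this programme runs at a low tonic level, with contributions from glia, vessels and the meninges. Ifit1, Ifit2 and Ifit3 encode proteins of tetratricopeptide repeats, and Ifit1 binds viral RNA with an incompletely methylated cap. Oasl2 encodes a relative of the oligoadenylate synthetases, which respond to double-stranded RNA. Bst2 (tetherin) holds budding virions at the membrane. Isg15 is a ubiquitin-like protein that is attached to other proteins, and Usp18 removes it and also restrains the interferon receptor. Irf7 is the transcription factor that amplifies interferon production. H2-T23 encodes a nonclassical major histocompatibility complex class I heavy chain that is recognised by receptors of natural killer cells.

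RefSeq promoter windows on GRCm38.p6, from 250 bases before to 50 bases after a gene's start, were found for 8 of the 9 genes, all but Usp18. They are shown because the response element in them is the feature through which such genes are known to answer interferon. The core of the interferon-stimulated response element was searched as GAAA, any 2 bases and GAAA on both strands, where overlapping matches count separately. It occurred in 5 of the 8, against 3.99% of all 27025 genes with a promoter window, where any window of a gene may match. Isg15 held 3 overlapping matches, Ifit1, Ifit3 and Bst2 held 2 each, and H2-T23 held 1. The RefSeq start used for H2-T23 lies inside the annotated span of the gene given below, and so does its match. The 160 bases before the start are printed 5′ to 3′ along the gene's strand, with matches in capitals (TTTC, any 2 bases and TTTC is the same core on the other strand).
Isg15 (chr4:156200819-156200978, minus strand): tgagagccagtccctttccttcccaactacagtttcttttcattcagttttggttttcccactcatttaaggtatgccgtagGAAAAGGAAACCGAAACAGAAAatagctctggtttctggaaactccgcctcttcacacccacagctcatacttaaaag
Ifit1 (chr19:34640729-34640888, plus strand): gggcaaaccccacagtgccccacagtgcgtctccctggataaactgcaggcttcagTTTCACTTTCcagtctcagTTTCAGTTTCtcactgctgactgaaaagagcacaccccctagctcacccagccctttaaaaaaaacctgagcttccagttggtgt
Ifit3 (chr19:34583369-34583528, plus strand): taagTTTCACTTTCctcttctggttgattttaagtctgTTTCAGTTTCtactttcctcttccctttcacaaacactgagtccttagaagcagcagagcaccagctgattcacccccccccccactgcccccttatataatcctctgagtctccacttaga
Bst2 (chr8:71537473-71537632, minus strand): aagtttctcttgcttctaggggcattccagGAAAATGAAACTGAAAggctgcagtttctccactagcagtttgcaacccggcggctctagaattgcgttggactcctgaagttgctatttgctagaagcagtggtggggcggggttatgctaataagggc
H2-T23 (chr17:36032702-36032861, minus strand): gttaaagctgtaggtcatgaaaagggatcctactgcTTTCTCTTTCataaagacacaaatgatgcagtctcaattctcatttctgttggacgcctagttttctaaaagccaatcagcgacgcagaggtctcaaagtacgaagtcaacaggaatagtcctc
The windows of Irf7, Oasl2 and Ifit2 held no such match, which says only that these letters are not in them. Within the 150 bases before the start the core was found in 5 of 8, against 1.85% of all genes with a window. The core of the gamma-activated site, TTC and GAA with any 3 bases between them, reads the same way on both strands. It was found in 2 of the 8, against 9.55% of all genes with a window. These were Bst2, where it overlaps the response element, and the first of 2 Ifit2 windows, where it starts 241 bases before the start. Of the wider interferon lists used for the rest of the pathway, 39 of 98 genes with a promoter window (39.8%) held the response element core.

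The library totals ran from 24470332 to 36323070 reads. As a check of the labels, Ash1l lay at 3641 to 4382 normalised counts in the 29 HT libraries and at 4703 to 6218 in 29 WT libraries. The library labelled WT vehicle female replicate 3 had 3557, which goes against its label. That library also had the highest summed choroid plexus, oligodendrocyte, endothelial, pericyte and meningeal markers and the lowest summed neuronal and astrocyte markers of the 59. Several results that use it are given with and without it. A normalised count here is the authors' deposited value, a read count divided by a library's size factor. In whole tissue, fewer cells of a type and less RNA per cell cannot be told apart.

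The genes lie on 7 chromosomes of GRCm38 (GENCODE M21 annotation), and the 3 Ifit genes form a cluster on chromosome 19. The first of the cluster is Ifit2 (ENSMUSG00000045932) on chromosome 19 at 34550694 to 34576419, plus strand, with 3 exons in its longest principal transcript. It is followed by Ifit3 (ENSMUSG00000074896) on chromosome 19 at 34583531 to 34588731, plus strand, with 2 exons. The third is Ifit1 (ENSMUSG00000034459) on chromosome 19 at 34640871 to 34650009, plus strand, with 2 exons. The regulators are Irf7 (ENSMUSG00000025498) on chromosome 7 at 141262706 to 141266481, minus strand, with 10 exons, and Usp18 (ENSMUSG00000030107) on chromosome 6 at 121245906 to 121270917, plus strand, with 11 exons. The ubiquitin-like modifier is Isg15 (ENSMUSG00000035692) on chromosome 4 at 156199424 to 156200818, minus strand, with 2 exons. The other antiviral effectors are Bst2 (ENSMUSG00000046718) on chromosome 8 at 71534255 to 71537456, minus strand, with 5 exons, and Oasl2 (ENSMUSG00000029561) on chromosome 5 at 114896936 to 114912234, plus strand, with 6 exons. The last is H2-T23 (ENSMUSG00000067212) on chromosome 17 at 36029773 to 36032855, minus strand, with 7 exons. Ifit3 has a close copy in Ifit3b, Oasl2 a relative in Oasl1, and H2-T23 relatives such as H2-T22 in the same complex. Ifit1 has a relative in Ifit1bl1. How reads shared between such copies or relatives were divided is not given in the sources used here, so the assignment of these genes is uncertain.

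All 9 genes were low to moderate in level. Per kilobase of transcript, the mean normalised count was 189.4 for H2-T23, 103.3 for Ifit3, 95.5 for Bst2 and 89.1 for Ifit2. It was 44.9 for Isg15, 34.3 for Irf7, 32.9 for Oasl2, 23.5 for Ifit1 and 16.0 for Usp18. Usp18, Ifit1 and Oasl2 were thus the lowest on this scale. In reads, the lowest library of any gene held 9 (Usp18 in HT lithium female replicate 3), so sampling noise weighs most on Usp18 and Isg15. Their libraries ran from 10.4 to 63.1 and from 12.9 to 62.0 normalised counts. H2-T23 varied least within groups, with an SD of 0.15 on the log2 scale, and Isg15 most, with 0.46.

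The order of the 12 group means differed from gene to gene. HT fluoxetine males had the highest mean for Ifit2, Ifit3, Irf7, Bst2 and Oasl2, at 82.6 ± 29.0 (SD, n = 5) for Irf7 and 237 ± 108 (SD, n = 5) for Ifit3. HT vehicle females had the highest for Ifit1 and Isg15, HT lithium males for Usp18, at 38.7 ± 10.4 (SD, n = 5), and WT lithium males for H2-T23. The lowest mean was in WT fluoxetine males for Ifit1, Irf7, Isg15 and Usp18, in HT lithium females for Ifit2, Ifit3 and Oasl2, and in WT vehicle males for Bst2 and H2-T23. The highest mean was between 1.33-fold (Ifit2) and 1.92-fold (Usp18) above the lowest. In 8 genes all 11 pairs of neighbours in this order differed by less than 1 SD, and for H2-T23 10 of 11 did. The highest and lowest groups shared values for Ifit1, Ifit2, Ifit3, Isg15 and Oasl2, and did not for Irf7, Bst2, Usp18 and H2-T23. These groups were picked for each gene as the extremes of the 12, which makes a separation more likely than in a fixed pair. The share of all genes that separate this way was not counted, so no conclusion is drawn from it.

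**Figure D1:**
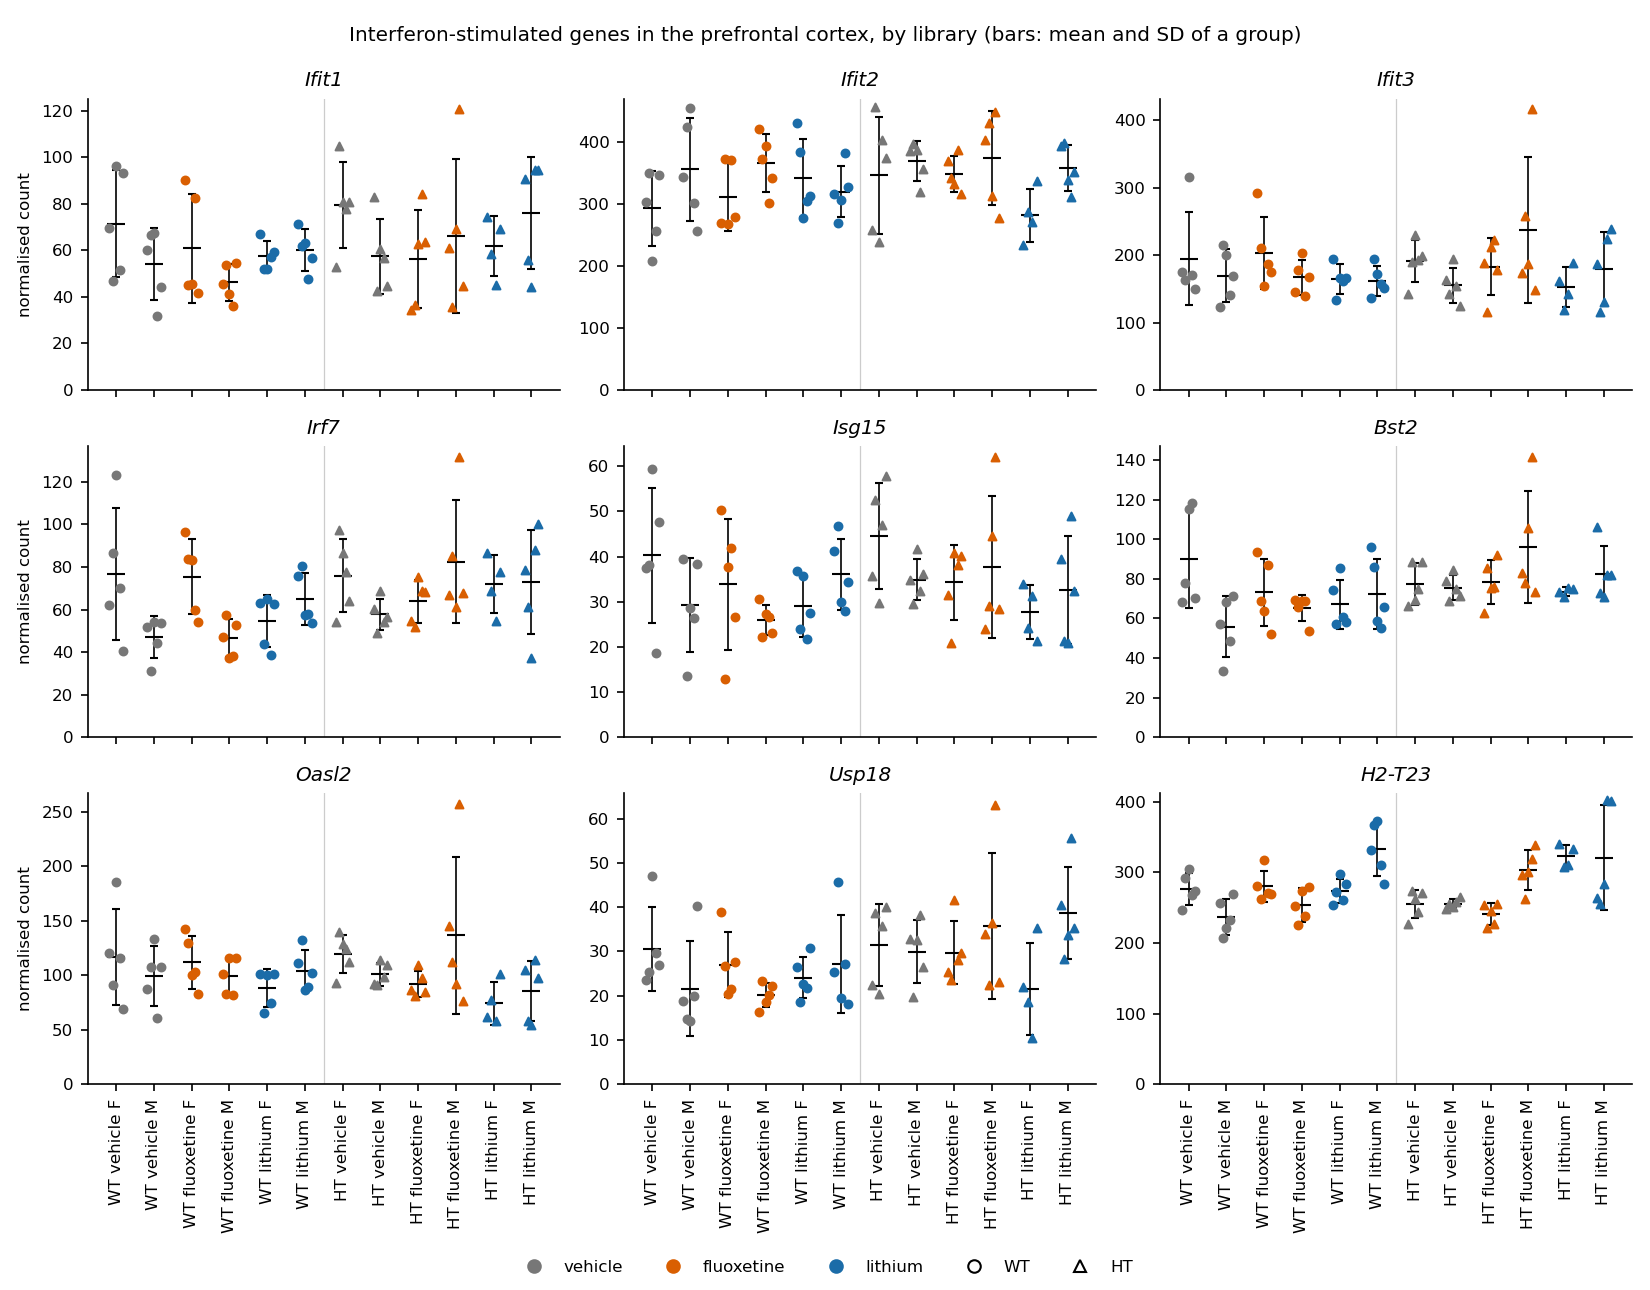
Normalised count (linear axis from 0) of the 9 genes in each of the 59 libraries, by group; each point is a library and bars give the mean and SD of a group of 5 libraries (4 in HT lithium females). In 7 of the 9 panels the highest point is the same HT fluoxetine male library, and H2-T23 is the panel with the tightest groups.

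Lithium against vehicle was compared first for H2-T23, the class I heavy chain. In WT males, vehicle libraries held 257, 206.5, 221, 233 and 269 normalised counts (replicates 1 to 5). The WT lithium males held 332, 367.5, 373, 311 and 284, so every lithium library lay above every vehicle library. Such a separation was seen in 2.1% of all tested genes. The log2 fold change was 0.49 ± 0.10 (limma, adjusted p = 0.0161), and H2-T23 was 1 of the 0.476% of genes that passed in this comparison. Without WT vehicle male replicate 2, the lowest library, the value was 0.44 with an adjusted p of 0.0673 in limma. Without WT lithium male replicate 3, the highest of its group, it was 0.45 with an adjusted p of 0.0603. In a limma fit to these 10 libraries only, the adjusted p was 0.35 at the same fold change.

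In HT females the libraries also separated. The vehicle libraries held 227.5, 274, 262, 243 and 270.4 and the 4 lithium libraries 339.8, 308, 309.9 and 334. Every lithium library was above every vehicle library here too, as for 7.52% of tested genes. The value was 0.34 ± 0.10 with an adjusted p of 0.051 (limma), just short of the threshold of 0.05 that 2.98% of genes passed. It came to 0.34 with an adjusted p of 0.0493 in edgeR and 0.0327 in DESeq2, and to 0.22 (adjusted p = 0.309 in limma) with each library's trend with GC content and length removed. In HT males, vehicle libraries held 248, 255.5, 251, 258 and 265 and lithium libraries 263, 255, 283, 402.5 and 401. The vehicle group was narrow, and replicates 4 and 5 of the lithium group carried most of the difference, which was 0.30 ± 0.10 (adjusted p = 0.149, limma). In WT females, vehicle libraries held 247, 292.5, 305, 267.5 and 274 and lithium libraries 254, 273, 297, 261.5 and 284. These groups overlapped throughout, and the value was -0.01 ± 0.10 (adjusted p = 0.951), or 0.02 without WT vehicle female replicate 3.

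Averaged over the 4 strata, H2-T23 rose by 0.28 ± 0.05 on the log2 scale, a 1.21-fold change (limma, adjusted p = 7.25e-05), in a comparison in which 13.1% of all genes passed and 7.39% were higher. By p-value it stood at rank 121 of the tested genes. The value stayed past the threshold in all 51 alternatives run, between 0.24 and 0.30. The difference between the sexes in this response was -0.23 ± 0.10 (female minus male, adjusted p = 0.802, limma). The difference between the genotypes in females was 0.35 ± 0.14 (HT minus WT, adjusted p = 0.0969), or 0.32 (adjusted p = 0.183) without WT vehicle female replicate 3. Neither passed, so the 4 strata were not shown to differ in their response.

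Markers of neighbouring tissue moved with H2-T23 across libraries. The sum of 6 striatal markers (all 6 detected) rose above 6000 normalised counts in 11 libraries, 7 of them in vehicle or lithium groups. It ran from 2409 to 3683 in WT vehicle males and from 3126 to 11600 in WT lithium males. It ran from 2905 to 3398 in HT vehicle females and from 3323 to 9567 in HT lithium females, and from 3130 to 6051 and from 3393 to 11160 in the HT males. In WT females, where H2-T23 overlapped throughout, it ran from 2801 to 7863 with vehicle and from 2634 to 9575 with lithium. The part of striatal tissue in the H2-T23 values was not tested. Over the 59 libraries the Spearman correlation of this sum with H2-T23, both as deviations from the group mean, was 0.48. Without those 11 libraries the lithium average of H2-T23 was 0.24 (adjusted p = 0.00199, limma), and the value in WT males was 0.38 (adjusted p = 0.141). HT lithium male replicate 5, with 3812 for the striatal sum, held 401 counts of H2-T23 and was the second highest of the 59. Of the 8 markers of T cells and natural killer cells only Cd4 was in the table, at 7.72 to 166.3 counts, and its correlation with H2-T23, 0.53, was the highest of the marker lists. The 11 libraries with a striatal sum above 6000 were also the 11 highest for Cd4. They held 64.4 counts or more, against 44.9 or less in all others, so the striatal and Cd4 correlations share these libraries. The part of Cd4 in the H2-T23 values was not tested. None of the 4 neutrophil markers was in the table. The GC content of the H2-T23 transcript was 55.3%, and with the GC and length trend removed the lithium average was 0.24 (adjusted p = 0.00012).

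The other 8 genes did not pass in any lithium comparison. In each genotype 8 of the 9 genes were lower with lithium in females, with medians of -0.30 in WT and -0.33 in HT (log2). The medians of all genes were 0.01 and 0.00. None of the 9, H2-T23 included, passed in WT females (2.45% of all genes did), HT females (2.98%) or HT males (0.252%). At an unadjusted p under 0.05 in limma, 1 of the 9 passed in WT females (20.9% of all genes), 4 in HT females (20.3%), 3 in WT males (15.1%), 1 in HT males (12.3%) and 2 on average (27.2%). In males, 7 of 9 were higher in WT (median 0.34) and 6 of 9 in HT (median 0.16). The female minus male difference in the lithium response was below 0 for 8 of 9 genes, with a median of -0.48, but no gene of the whole table passed in that comparison (0%). An unadjusted p under 0.05 was found for 6 of the 9, against 5.82% of all genes. With WT vehicle female replicate 3 left out, Irf7, Bst2, Usp18 and H2-T23 had one (0.0118 to 0.0342, limma). Ifit1 (0.0573) and Isg15 (0.0697) did not, and the adjusted p was 0.999. Without WT vehicle female replicate 3 the WT female values shrank, Irf7 from -0.42 to -0.22, Oasl2 from -0.34 to -0.16 and Ifit3 from -0.20 to -0.01.

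Oasl2, the synthetase relative, had the lowest lithium value of the 9 in HT females, in HT males and on average, but not in WT mice. HT vehicle females held 92.8, 139.8, 129, 124 and 113 normalised counts and HT lithium females 61.4, 77.2, 58.0 and 101. Only replicate 4 of the lithium group reached the range of the vehicle group. The change was -0.70 ± 0.24 (limma, adjusted p = 0.0911), and -0.85 (adjusted p = 0.0471) without that library. Without replicate 3 of the lithium group it was -0.59 (adjusted p = 0.284), and without replicate 1 -0.62 (adjusted p = 0.219). The average over the 4 strata was -0.31 ± 0.12 with an adjusted p of 0.0693, so it did not pass. Leaving out HT lithium male replicate 4, HT lithium female replicate 4, replicate 5 of the WT vehicle females or replicate 4 of the WT vehicle males brought the adjusted p to between 0.0332 and 0.0449. Every other single omission left it above 0.05, up to 0.122 without HT lithium female replicate 3. It was 0.11 without WT vehicle female replicate 3 and 0.203 without the libraries with high striatal markers. The modifier Isg15 and its protease Usp18 gave -0.65 ± 0.30 (adjusted p = 0.209) and -0.59 ± 0.29 (adjusted p = 0.233) in HT females. In the lithium average, 7 of 10 endothelial, 3 of 5 meningeal fibroblast, 3 of 14 microglial and 3 of 7 astrocyte markers fell, and 1 endothelial, 1 microglial and 1 astrocyte marker rose. Their part in these values was not tested.

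For Isg15 in HT females, vehicle libraries held 35.7, 52.6, 29.6, 47.0 and 57.9 and lithium libraries 34.0, 24.2, 31.3 and 21.3, and replicates 1 and 3 of the lithium group lay inside the vehicle range. In WT males the values were higher with lithium for Irf7 and Bst2. For Irf7, vehicle libraries held 51.9, 30.9, 54.1, 44.1 and 53.8 and lithium libraries 75.8, 80.5, 57.5, 57.9 and 53.5, a change of 0.47 ± 0.23 (limma, adjusted p = 0.315). For Bst2, vehicle libraries held 57.1, 33.4, 68.4, 48.5 and 71.3 and lithium libraries 96.0, 85.9, 58.7, 55.0 and 65.7, a change of 0.38 ± 0.18 (adjusted p = 0.297). In both genes vehicle replicate 2 was the lowest library and the groups overlapped.

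**Figure D2:**
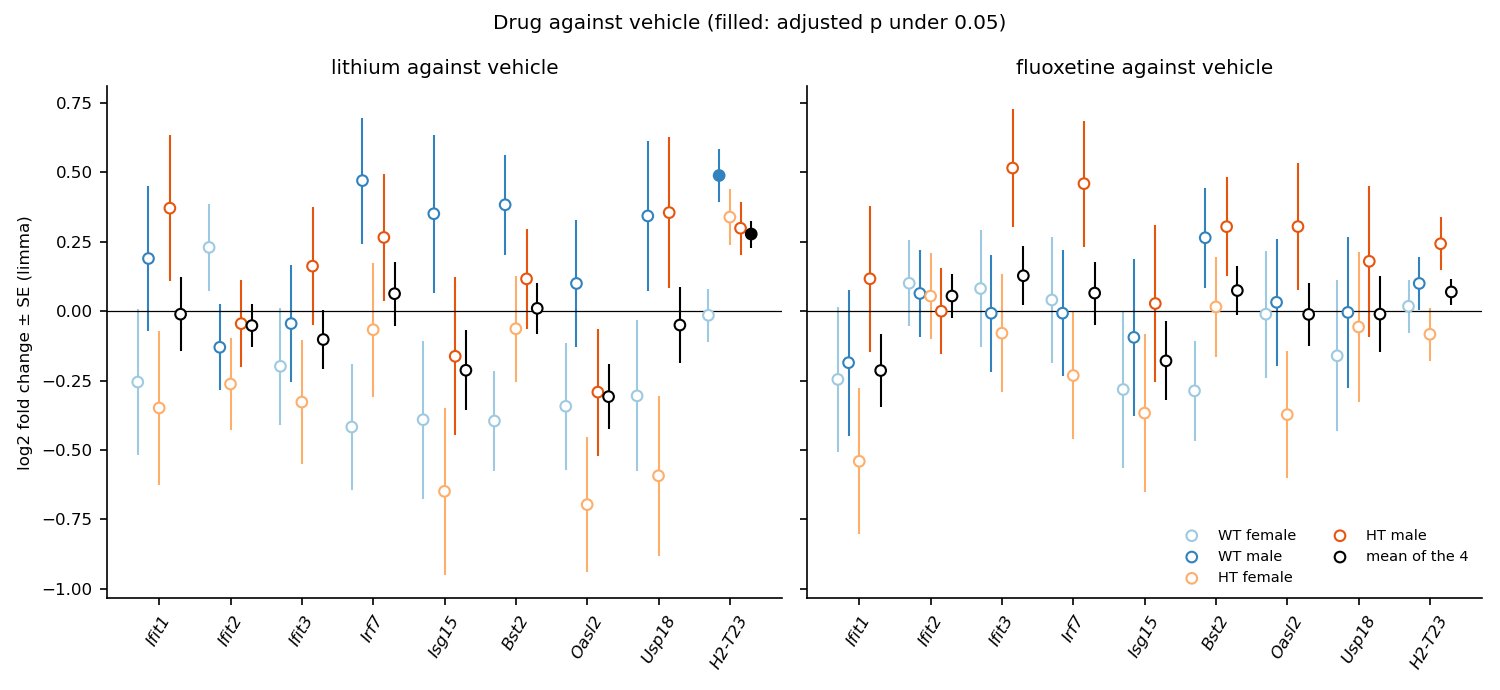
Log2 fold change of each gene (limma, error bars SE) for lithium (left) and fluoxetine (right) against vehicle, in each genotype and sex and as the mean of the 4; filled points passed an adjusted p of 0.05. The 2 filled points are H2-T23 under lithium in WT males and in the mean.

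Fluoxetine against vehicle gave no gene past the threshold, on average or in any stratum. Of all genes, 13.5% passed on average, 2.85% in WT females, 0.85% in WT males, 0% in HT females and 5.74% in HT males. At an unadjusted p under 0.05 in limma, 0 of the 9 passed on average (28.1% of all genes), in WT females (16.4%) and in WT males (16.5%), 1 in HT females (7.66%) and 3 in HT males (21.9%), and edgeR and DESeq2 gave 0 calls at the adjusted threshold. The averages ran from -0.21 ± 0.13 for Ifit1 (adjusted p = 0.292) to 0.13 ± 0.11 for Ifit3 (adjusted p = 0.455). Without WT vehicle female replicate 3 they ran from -0.18 for Ifit1 to 0.17 for Ifit3. The values in WT females then ran from -0.19 for Bst2 to 0.27 for Ifit3, and none passed in either comparison. In HT males all 9 values were above 0, with a median of 0.24, the largest for Ifit3 at 0.52 ± 0.21 (adjusted p = 0.132) and Irf7 at 0.46 ± 0.23 (adjusted p = 0.223). In HT females 7 of 9 values were below 0 (median -0.08), the lowest for the cap-binding Ifit1. HT vehicle females held 53.0, 105, 80.8, 77.7 and 81.0 counts of it and HT fluoxetine females 34.5, 36.4, 62.6, 84.3 and 63.8, a change of -0.54 ± 0.26 (adjusted p = 0.645, limma), with overlapping groups. In HT males, without HT fluoxetine male replicate 4, the values of Ifit3 and Irf7 were 0.29 and 0.28, and the values of Ifit1, Ifit2, Isg15 and Usp18 were below 0. Fluoxetine and lithium were compared with the same vehicle libraries, so their values are not independent of each other.

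HT against WT was compared within each drug and sex and as the mean of the 6 strata. The mean was above 0 for 8 of 9 genes, all but Oasl2, with a median of 0.14 against 0.00 over all genes, and none passed where 0.358% of genes did. The highest were Usp18 at 0.28 ± 0.11 (adjusted p = 0.431), Irf7 at 0.24 ± 0.09 (adjusted p = 0.429) and Bst2 at 0.21 ± 0.07 (adjusted p = 0.29). At an unadjusted p under 0.05, these 3 of the 9 passed, against 8.1% of all genes, and edgeR and DESeq2 gave 0 calls at the adjusted threshold. Without HT fluoxetine male replicate 4 the 3 values were 0.24, 0.21 and 0.19. Without WT vehicle female replicate 3 they were 0.31, 0.27 and 0.23, and still did not pass (adjusted p = 0.285, 0.223 and 0.189 in limma). None of the 9 separated the genotypes in all strata.

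The highest median of the 9 genes between genotypes was in males on fluoxetine. For Irf7, the amplifier of interferon production, WT fluoxetine males held 47.0, 57.4, 37.0, 38.2 and 52.7 normalised counts and HT fluoxetine males 67.0, 85.1, 61.0, 132 and 67.9. For the tetherin gene Bst2, WT held 69.3, 65.6, 68.6, 69.0 and 53.6 and HT 83.0, 77.7, 106, 142 and 73.3. For both genes every HT library was above every WT library, a separation seen in 3.29% of tested genes, and replicate 4 was the highest HT library. All 9 genes were above 0, with a median of 0.41 against 0.00 over all genes, yet none passed where 0.386% of genes did. Of the 9, 4 had an unadjusted p under 0.05, against 15.6% of all genes. Irf7 was at 0.78 ± 0.23 (limma, adjusted p = 0.0844), Usp18 at 0.71 ± 0.27 (0.187) and Bst2 at 0.52 ± 0.18 (0.145). DESeq2 on the recovered reads gave Irf7 an adjusted p of 0.0337.

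A single library carried much of this. In HT fluoxetine male replicate 4 Ifit3 stood at 416 counts against 174, 257, 187 and 149 in replicates 1, 2, 3 and 5. Oasl2 stood at 257 against 145, 112, 91.9 and 76.6. Without it the value of Ifit3 went from 0.41 to 0.18, of Ifit1 from 0.40 to 0.15, of Oasl2 from 0.33 to 0.07 and of Ifit2 from 0.02 to -0.05. Irf7 (0.60, adjusted p = 0.37 in limma), Usp18 (0.48) and Bst2 (0.37) kept more of theirs, and H2-T23 went from 0.26 to 0.24. In the same library, the summed markers of endothelium (7330), pericytes (4636) and B cells (151, from 3 of 5 markers in the table) were the lowest of the 59, and those of meningeal fibroblasts (3870) the lowest of its group. All 14 microglial markers were detected and summed to 12930, the lowest of its group. The part of these cell types in the high values was not tested.

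In the other strata the medians were nearer to 0. In vehicle males 8 of 9 genes were above 0 (median 0.11) and none passed, with Usp18 at 0.52 ± 0.27 (adjusted p = 0.733) and Bst2 at 0.48 ± 0.18 (adjusted p = 0.705), where 0.00559% of genes, Ash1l alone, passed. Usp18 held 18.7, 14.8, 14.3, 19.9 and 40.3 counts in WT vehicle males and 32.7, 19.6, 32.6, 38.3 and 26.6 in HT vehicle males. WT replicate 5 lay far above the other 4 WT libraries and above every HT library. At an unadjusted p under 0.05 in limma, 1 of the 9 passed in vehicle males (6.94% of all genes) and 0 in vehicle females (22.7%). In vehicle females 7 of 9 were above 0 (median 0.05) and none passed, against 6.2% of all genes. Without WT vehicle female replicate 3 the values there were larger, 0.36 for Isg15, 0.30 for Ifit1, 0.29 for Oasl2 and 0.25 for Irf7, with adjusted p-values between 0.578 and 0.64 in limma. H2-T23 separated the genotypes in 2 female strata, in opposite directions. Under fluoxetine all HT females (254, 222, 245, 227 and 255) lay below all WT females (280.1, 263, 318, 271 and 269.8), as for 3.92% of genes. The value was -0.22 ± 0.10 (adjusted p = 0.249). Under lithium all HT females lay above all WT females, as for 3.74% of genes, at 0.24 ± 0.10 (adjusted p = 0.618). Neither passed, nor did any other gene of the 9 in these strata, where 1.95% and 0.00559% of genes passed. Of the 9, 1 had an unadjusted p under 0.05 in fluoxetine females (15.6% of all genes) and 1 in lithium females (7.65%). In fluoxetine females more of the 9 values lay below 0 than above, with Oasl2 at -0.26, Irf7 at -0.22 and Usp18 at 0.14. In lithium females the values went both ways, with Irf7 above 0 and Oasl2 below. In lithium males 6 of 9 values were above 0 (median 0.11) and none passed (0.00559% of all genes), with 0 of the 9 at an unadjusted p under 0.05 (3.7%).

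**Figure D3:**
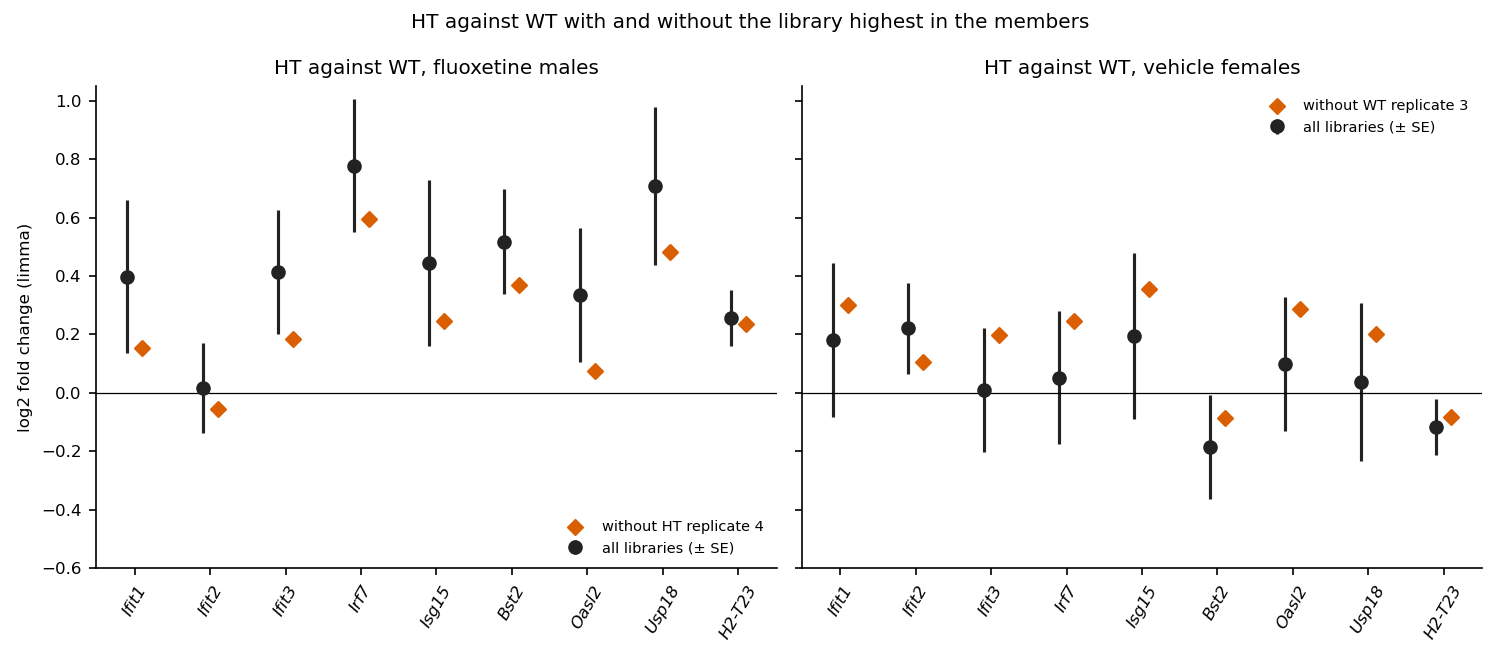
Log2 fold change of HT against WT for the 9 genes in fluoxetine males (left) and vehicle females (right), with all libraries (circles, error bars SE) and without 1 library (diamonds). Leaving out HT fluoxetine male replicate 4 lowers every value on the left, and leaving out WT vehicle female replicate 3 raises 8 of the 9 on the right.

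The difference of the genotype effect between drug and vehicle, and of each drug effect between the sexes, was tested in 8 interactions. None of the 72 values of the 9 genes passed in limma, and 10 of them had an unadjusted p under 0.05. Those were 6 for female minus male by lithium, 2 for female minus male by fluoxetine (11.4% of all genes) and 2 for genotype by lithium in females (25.8%). Without WT vehicle female replicate 3 the unadjusted p in limma was above 0.05 for Ifit1 (0.0573) and Isg15 (0.0697) in the first. It was also above 0.05 for H2-T23 in the second (0.0599) and for Ifit2 in the third (0.101). Of all genes, 0.0839% passed for genotype by fluoxetine in females, 0.00559% in males and 0.0392% on average, 0.425% for female minus male by fluoxetine, and 0% for genotype by lithium in males and on average. H2-T23 in genotype by lithium in females came nearest (adjusted p = 0.0969), in a comparison that 8.2% of all genes passed. Females and males, averaged over the 6 genotype and drug strata, differed by -0.17 ± 0.06 for Ifit2 (adjusted p = 0.287) and by 0.19 ± 0.09 for Irf7 (adjusted p = 0.404), and none of the 9 passed, against 0.117% of genes, with 2 of the 9 at an unadjusted p under 0.05 (12.4% of all genes). Without WT vehicle female replicate 3 the unadjusted p in limma was 0.0225 for Ifit2 and 0.0902 for Irf7.

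Single libraries moved several of the genes together. As the mean deviation of the 9 genes from their group medians, HT fluoxetine male replicate 4 stood highest at 0.80 (log2), with 8 genes at the top of its group and 7 at the top of all 59 libraries. WT vehicle female replicate 3 followed at 0.49, with 7 at the top of its group. There Irf7 was 123 against 40.4 to 86.8 in the other 4 libraries, and Ifit2 went the other way, with the lowest value of all 59 (208). WT fluoxetine female replicate 1 stood at 0.41, with 7 of the 9 highest in its group. The lowest were HT lithium male replicate 3 at -0.48 and HT vehicle female replicate 1 at -0.43, where 5 and 6 of the genes were the lowest of the group. WT vehicle male replicate 2 held the lowest Irf7 (30.9), Bst2 (33.4) and H2-T23 (206.5) of all 59 libraries, while its Ifit3 was the highest of its group.

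**Figure D4:**
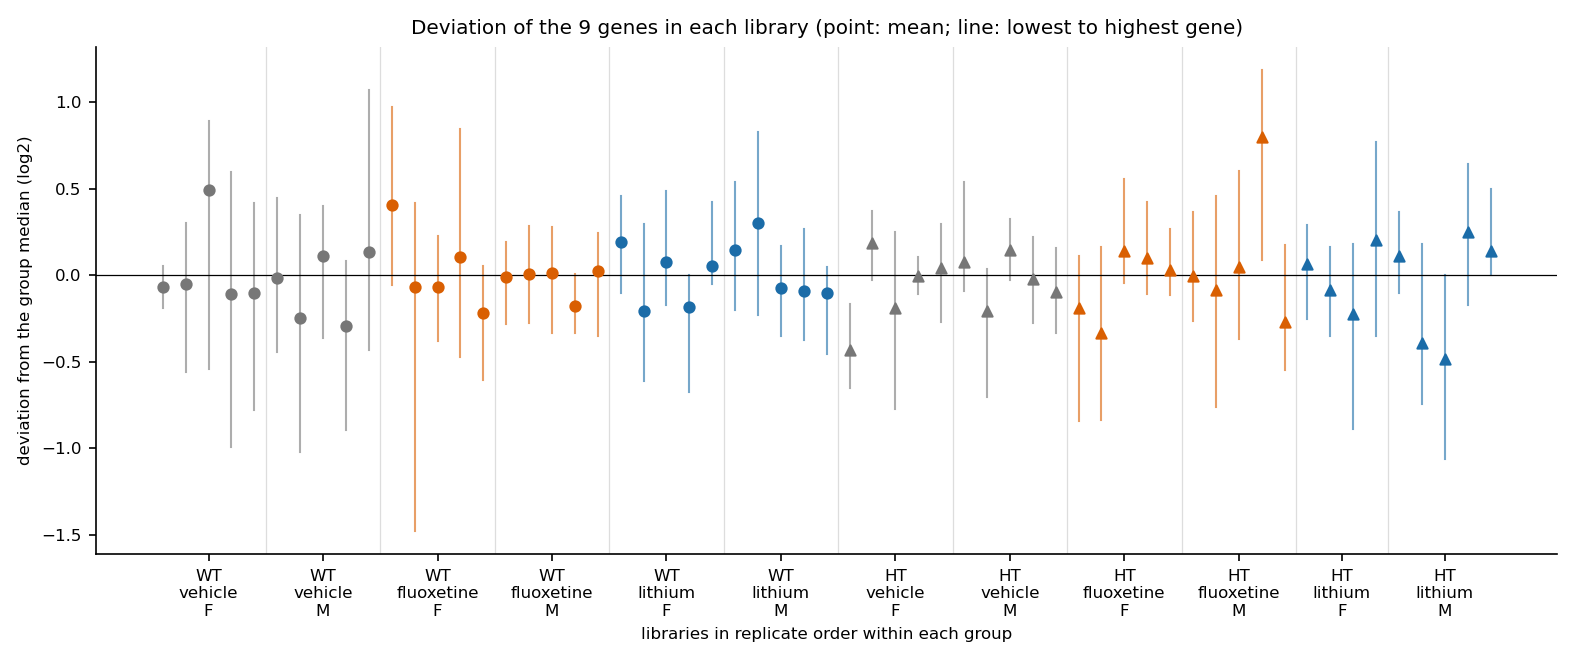
Deviation (log2) of the 9 genes from their group median in each library, with the mean as a point and a line from the lowest to the highest gene; libraries are in replicate order within each group. HT fluoxetine male replicate 4 (0.80) and WT vehicle female replicate 3 (0.49) stand highest and HT lithium male replicate 3 (-0.48) lowest.

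Within groups, 7 of the genes went up and down together from library to library, and Ifit2 did not. The Spearman correlation of deviations from the group mean over 59 libraries, which share each library's depth and dissection, lay between 0.31 and 0.69 for the 21 pairs of Ifit1, Ifit3, Irf7, Isg15, Bst2, Oasl2 and Usp18 (median 0.48). Without the 2 highest libraries it lay between 0.24 and 0.66 (n = 57). H2-T23 gave 0.19 to 0.44 with those 7. Ifit2 gave -0.11 to 0.18 with them and -0.36 with H2-T23, although it lies in 1 cluster with Ifit1 and Ifit3.

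The genes whose pattern was most like the mean of the 9 were mostly of the same pathway. Of 17866 other genes, the 10 with the highest Spearman correlation (59 libraries, deviations from group means) were Parp14 (0.76), Slc6a13 (0.68), Rnf213 (0.65), Gjb2 (0.64), H2-K1 (0.64), Rtp4 (0.64), Ifi44 (0.64), Iigp1 (0.62), Slc6a20a (0.62) and Xaf1 (0.60). In these 10 the correlation lay between 0.55 and 0.74 without the 2 highest libraries. Of the 10, 7 were on the interferon lists, and so were 28 of the highest 100. The 109 tested genes of those lists had a median of 0.35, against 0.00 over all the genes. Slc6a13, Gjb2 and Slc6a20a are not on them, and are known from the leptomeninges, the inner covering of the brain. Of the marker sums, that of 5 meningeal fibroblast markers (all detected, 3532 to 7976 counts) had the highest correlation with the 9 genes at 0.40 (0.44 without the 2 libraries), and that of 8 cortical neuron markers the lowest at -0.41. Microglial markers (14 of 14 detected, 11120 to 17690) gave 0.03, border macrophages and monocytes (8 of 8, 286 to 813) 0.16, endothelium (10 of 10) 0.25 and pericytes (5 of 5) 0.22. The part of meningeal tissue in the levels of the 9 genes was not tested.

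**Figure D5:**
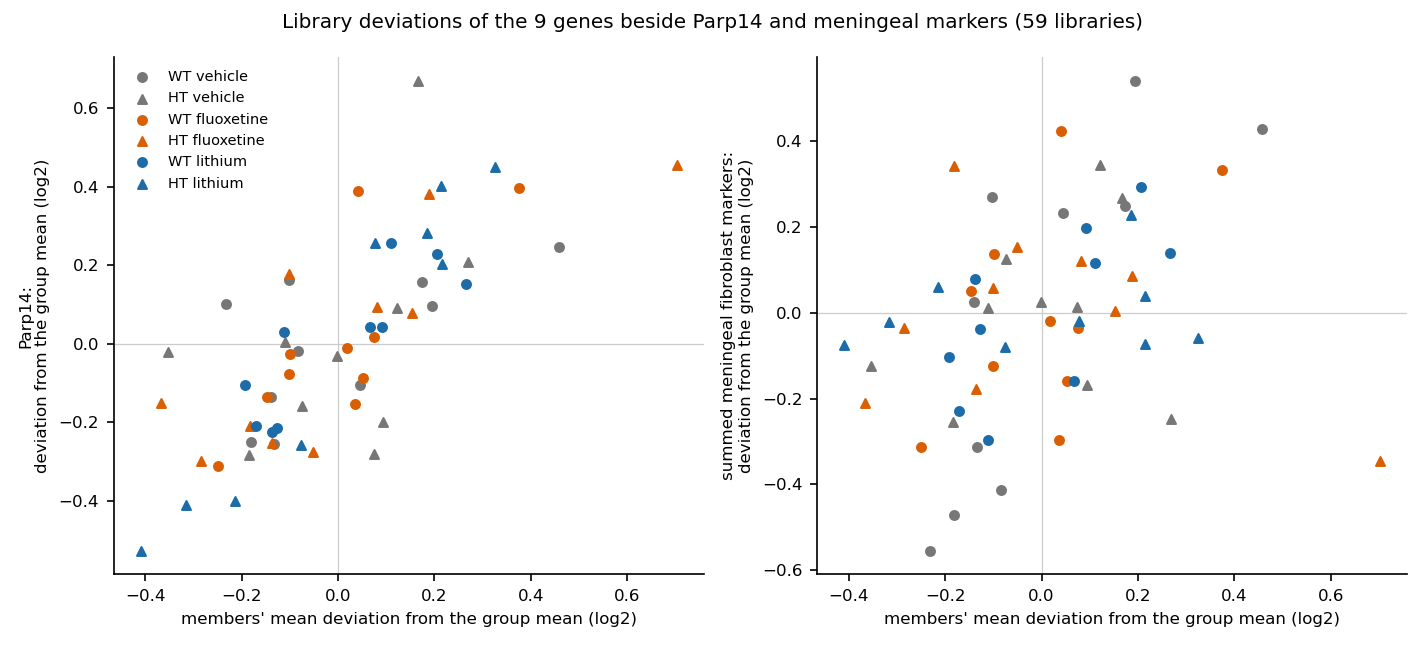
Each point is 1 of 59 libraries; the horizontal axis is the mean deviation of the 9 genes from their group mean (log2) and the vertical axes are the same deviation of Parp14 (left) and of the summed meningeal fibroblast markers (right). The points follow a rising line on the left (Spearman 0.76) and a looser one on the right (0.40), where the library farthest to the right, HT fluoxetine male replicate 4, lies low.

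The rest of the pathway was read from 5 lists with genes in the table, 110 genes in all, of which 109 were tested. None of the 7 interferon ligands on the ligand list was in the table. With HT against WT none of the 109 passed on average, where 0.358% of all genes did, and their median was 0.05. Under fluoxetine, averaged over the 4 strata, none rose and 11 fell (10.1% of the 109, where 6.6% of all genes fell). The falls included 3 of the 17 receptor and signalling genes, among them Irf9 (-0.27 ± 0.06, adjusted p = 0.00124 in limma), a DNA-binding factor that acts at the response element, and Irf2 (-0.15 ± 0.04), a relative that competes at the same element. The endosomal RNA sensor Tlr3 was at -0.32 ± 0.07, and Slfn5 at -0.39 ± 0.06 (adjusted p = 1.43e-05). Rnf213, Gbp7, Ifi35 and B2m, the light chain of class I molecules, were between -0.28 and -0.20. In the same average 7 of 10 endothelial markers fell, and their part in these falls was not tested.

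Under lithium 5 of the 109 rose and 9 fell on average, where 7.39% of all genes rose and 5.74% fell. Of the 11 nucleic acid sensors, Eif2ak2, the kinase that stops translation on double-stranded RNA, fell (-0.30 ± 0.07, adjusted p = 0.0023 in limma), as did Tlr3 (-0.23 ± 0.07), and Adar, the RNA-editing deaminase, rose (0.11 ± 0.03). Of the 14 interferon-inducible GTPases 3 fell, among them Gbp3 (-0.34 ± 0.09) and Gbp9 (-0.32 ± 0.08). Slfn2 rose (0.37 ± 0.10). Of the 17 antigen presentation genes, H2-T22, the relative of H2-T23, rose (0.18 ± 0.05, adjusted p = 0.0106), and the proteasome activator Psme1 fell (-0.13 ± 0.04). The medians of the 109 were -0.04 under fluoxetine and -0.07 under lithium. Without WT vehicle female replicate 3 the counts were 1 risen and 11 fallen under fluoxetine and 6 risen and 8 fallen under lithium.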

How the data were processed

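RNA from prefrontal cortex was sequenced in 59 libraries. The deposited table holds, per the submitters' processing notes and its values, a signal of normalised read counts: read counts per gene divided by a size factor of each library. Those notes name Salmon 0.11.2, R 3.6.0, DESeq2 1.19.11 and genome build GRCm38, without saying which made which step. Dividing each deposited column by its smallest step gave whole reads for 100% of values within a tolerance of 0.01, and every column matched a sample.

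Genes with at least 10 normalised counts in at least 5 libraries were kept (17875 tested, 213 left out). limma 3.58.1 (R 4.3.3) was fitted to log2(normalised count + 1) with 1 mean for each of the 12 groups and a spread shared by all 59 libraries. Fold changes are on that scale, which understates the change of low genes. P-values were two-sided and Benjamini-Hochberg adjusted over all tested genes, with a threshold of 0.05. On the recovered reads edgeR 4.0.16 called 2369 genes for the lithium average, where limma called 2347, and DESeq2 1.42.0 was run as a further alternative. The fit was tested on simulated data. Marker sums add normalised counts of the listed genes. Positions are from GENCODE M21 on GRCm38, and promoters from RefSeq on GRCm38.p6.

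The members and lists were chosen with earlier results of these data known, so no pattern here is independent support for those results. Beside the members, the text names at most 8 pathway genes in a comparison, by smallest p among those past the threshold, the 10 genes most like the mean of the members, and Ash1l. Alternatives were other pseudocounts, filters, normalisations and tools, GC and length trends, the compared groups alone, a replicate block and leaving out libraries. Libraries with the same replicate number in different groups had a mean correlation of -0.01 in their deviations, with 54 of 319 pairs above 0.1, so the numbers were not used as pairs. The last HT lithium female library has a number in its library name that differs from its title. The title number was used, also in the replicate block.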

Additional observations from a re-analysis of the deposited data

Results flagged for a closer look

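In 4 of 108 sets of a gene in a group, a single library lay farther from the others than the 95% critical value of Dixon's test, which chance exceeds in about 1 of 20 sets. Ifit3 in WT vehicle females was 315.8 normalised counts in replicate 3, against 150.3 to 175.2 in the other 4 libraries. Usp18 was 47.0 in the same library, against 23.5 to 29.6. This is the library whose Ash1l level goes against its label. Usp18 in WT vehicle males was 40.3 in replicate 5, against 14.3 to 19.9. Bst2 in WT fluoxetine males was 53.6 in replicate 5, below the 65.6 to 69.3 of the others. HT fluoxetine male replicate 4, the highest library for 7 of the 9 genes, did not pass this test in any of them.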

How the results depend on the processing

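The number of genes past the threshold was recomputed under 71 alternatives, 59 of them without a single library. Of 884 pairs of comparison and alternative, 864 gave the same count and 20 a different one, in 4 comparisons, and no called value changed sign. For lithium in WT males the count of 1 (H2-T23) went to 0 with only the groups compared, without the WT vehicle libraries female 3 and male 2 together, and without the 11 libraries with high striatal markers. Leaving out single libraries gave 0 to 1. For lithium in HT females the count of 0 went to 1 with quantile normalisation, with the replicate block (H2-T23 at 0.36, adjusted p = 0.0305), in edgeR, in DESeq2 and without those 2 vehicle libraries. It went to 2 without WT vehicle female replicate 3 and HT fluoxetine male replicate 4, and to 0 to 1 without single libraries. For HT against WT in fluoxetine males the count of 0 went to 1 (Irf7) in DESeq2 and without those 2 vehicle libraries, and leaving out single libraries gave 0 to 1. For the lithium average, leaving out single libraries gave 1 to 2, the second being Oasl2. Where the alternative leaves out libraries it also changes the number of samples; otherwise the cause was not tested. The replicate block changed no other count. The alternatives without the striatal-high libraries and without WT vehicle female replicate 3 and HT fluoxetine male replicate 4 were chosen after seeing the data, as was the repeat of the pathway counts without WT vehicle female replicate 3. Of the 232 values not past the threshold, 150 kept their sign in every alternative run. Counts as low as 9 reads limit Usp18 and Isg15 most, and the gamma-activated site count fell from 2 to 1 of 8 in the 150-base window.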

Other observations

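Several pathway genes passed in single genotypes and sexes. With lithium in WT females 0.917% of the pathway genes passed in each direction, where 2.45% of all genes passed. The share was 0.917% for HT against WT in vehicle females (6.2% of all genes) and for lithium in HT females (2.98%). For genotype by lithium in females 1.8% were higher and 0.917% lower, where 8.2% of all genes passed. The first 2 genes named here lost their calls without WT vehicle female replicate 3, the library that goes against its label. The immunoproteasome subunit Psmb8 fell with lithium in WT females (-0.64 on the log2 scale, and -0.57 with an adjusted p of 0.171 in limma without that library). Its genotype by lithium difference in females was 0.95 (0.88 and an adjusted p of 0.0563 without it). The kinase Jak2 was higher in HT than WT vehicle females (0.35, and 0.29 with an adjusted p of 0.144 without it) and rose with lithium in WT females (0.35, and 0.30 with an adjusted p of 0.176 without it). Its genotype by lithium difference in females was -0.51 (-0.45 and an adjusted p of 0.063 without it). Ly6e rose with lithium in HT females (0.36, adjusted p = 0.0489 in limma). The genotype by lithium difference of Ly6e in females was 0.45 (adjusted p = 0.0411). No pathway gene passed in that comparison without WT vehicle female replicate 3.

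Under fluoxetine in WT females Gbp5 (-0.71) and Slfn5 (-0.57) fell, and both kept their call without that library (adjusted p = 0.0473 and 0.015 in limma). Irf9 fell too (-0.46) and did not pass without it (-0.40, adjusted p = 0.0691). In WT males, a comparison that does not hold that library, Slfn5 (-0.48) and Irf9 (-0.46) fell. In HT males Slfn5 fell (-0.51) and Psme1 rose (0.26). Of the pathway genes 2.75% passed in WT females, all lower, against 2.85% of all genes. The shares were 1.8%, all lower, against 0.85% in WT males, and 0.917% in each direction against 5.74% in HT males.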
